A study of Mus musculus with 4 samples.

Results

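Intronic m6A peaks are stretches of RNA that an m6A antibody enriched and that the authors' annotation places in an intron of the gene they list, here called the host. They were taken as every row whose region is given as intronic. This gave 1671 of 36507 peaks in wild-type macrophages and 1992 of 38697 peaks in macrophages of the Mettl3 conditional knockout. It also gave 404 of the 10355 rows in the authors' deposited table of differential peaks. The cells were mouse bone-marrow-derived macrophages, grown with macrophage colony-stimulating factor for 7 days and then kept with MC38 colon carcinoma cells for 24 hours. Both groups carried Mettl3 alleles flanked by loxP sites (Mettl3fl/fl). The group called WT had these alleles alone, and the group called cKO also had Cre recombinase under the lysozyme M promoter (LyzM-cre), which is active in myeloid cells and leaves the MC38 cells untouched. Each genotype had 1 library of antibody-bound fragments (IP) and 1 library of the same RNA before binding (input), so the differences given here compare 1 library with 1 library and the spread among cultures cannot be seen. Read totals were not analysed here either, and the depth at a peak is not known. Enrichment is the authors' log2 of IP over input, and intervals are 95% intervals that cover only the number of peaks counted.

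N6-methyladenosine (m6A) is written into nascent messenger RNA by a complex whose catalytic subunit is METTL3, mostly at adenosines within short motifs such as GGACT. In mature messenger RNA it is densest near stop codons and in 3' untranslated regions (3' UTRs). Introns are removed in the nucleus, so poly(A)-selected RNA holds intron sequence mainly in transcripts that keep an intron, in unspliced precursors and in separate RNAs that lie within a host's intron.

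Macrophage markers were present in both inputs. Of 36 genes on a macrophage list, 30 had an input level, in FPKM (fragments scaled by transcript length and sequencing depth), and these ran from Maf (4.49 in the WT and 4.20 in the cKO) to Lyz2 (3393 and 1980.5). Cd68 (695 and 634) and Adgre1 (219.6 and 162) were lower in the cKO, and Itgam (179 and 188) and Gpnmb (1009.9 and 1695) higher. Of 24 markers of lymphoid, neutrophil, mesenchymal and epithelial cells, 8 had an input level, with a summed FPKM of 129 in WT and 220 in cKO input, led by Sparc (32.4 and 66.7) and Col1a1 (26.8 and 49.4). Input levels are given only for genes with a differential peak, so a marker without a value is not shown to be absent. Any peak was called in 14 of these 24 genes. None of the 14 had an intronic peak in either list, against 13.7% of all genes with a peak. The part of other cells in the results below was not tested.

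Among the hosts of the strongest, the matched and the most different peaks named below, 6 had a GGACT on the transcript strand within the peak, and 30 bases around the one nearest the middle of each peak are shown because they stand for the kinds of RNA in which intronic peaks lay. GGACT is in capitals. The sequences are read 5' to 3' from GENCODE release M21 transcripts at mm10 positions.
Ms4a6b, retained intron, chr19:11528048-11528077, plus strand: ttgtgatgtctcGGACTgtaaaaactggat
Cep128, other host transcript, chr12:91317975-91318004, minus strand: ctaaacacgacaGGACTgaagcacgtatga
Dcun1d2, exon of 9530085L11Rik, chr8:13286815-13286844, minus strand: ttgggaacacttGGACTtgatgccctcatt
Wars2, exon of Gm42717, chr3:99206614-99206643, plus strand: ggcttcaaagatGGACTctggctaagttgt
Rasgrp2, retained intron, chr19:6411494-6411523, plus strand: agttcgatcggGGACTatctattcatatgt
Gfm2, retained intron, chr13:97160448-97160477, plus strand: gagggaaccccaGGACTggaaacctagcca
Of the 30 such hosts whose peak sequence could be read, the other 24 had no GGACT in the peak.

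Intronic peaks made up 4.58% of the WT list (4.37 to 4.80%) and 5.15% of the cKO list (4.93 to 5.37%). They were short. Their median outer span was 175 bp in both genotypes, against 630 bp in the WT and 624 bp in the cKO for all other peaks. Peaks of 100 bp, the shortest in either list, were 23.3% of the WT and 21.1% of the cKO intronic peaks, but 4.34% and 4.29% of the others. Only 1.08% and 0.954% of intronic peaks spanned more than 5000 bp, against 17.9% and 17.0% of the others, whose span can run across the introns between their outer ends.

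**Figure D1:**
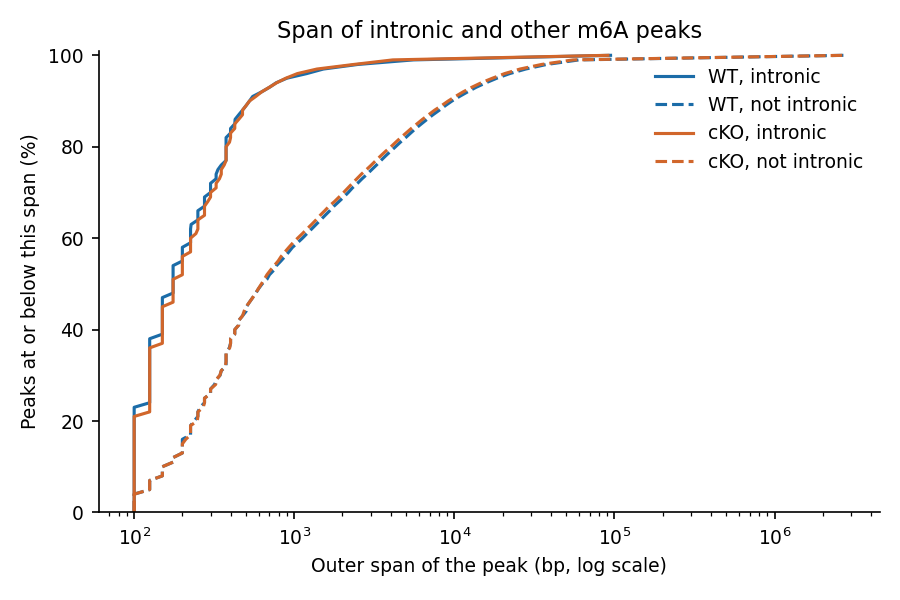
Cumulative share of peaks (y axis, %) by outer span (x axis, bp, log scale) for intronic peaks (solid lines) and all other peaks (dashed lines) of the WT (blue) and the cKO (orange). Both intronic curves lie to the left of the others, with medians of 175 bp against 630 bp and 624 bp.

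Enrichment at intronic peaks was lower than elsewhere except in exons. The median log2 IP over input was 1.05 in the WT (1.02 to 1.08) and 1.09 in the cKO (1.07 to 1.12). The medians in 3' UTRs were 1.30 and 1.42, in 5' UTRs 1.32 and 1.28, in noncoding RNA exons 1.68 and 1.67, and in exons 0.90 and 0.92. IP exceeded input at least 4-fold at 209 intronic peaks of the WT (12.5%) and 233 of the cKO (11.7%), while 21.7% and 20.5% of the other peaks reached it. Within a host, the strongest intronic peak was weaker than the strongest 3' UTR peak in 839 of 1179 WT hosts (71.2%) and 1062 of 1373 cKO hosts (77.3%). The median difference was -0.41 on the log2 scale in the WT (-0.46 to -0.36) and -0.55 in the cKO (-0.60 to -0.50).

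Most of these peaks were intronic only in relation to the transcript the authors list. That transcript was protein-coding for 97.6% of the WT and 97.4% of the cKO intronic peaks, and no intronic peak overlapped one of its exons. Yet 1628 WT peaks (97.4%) and 1937 cKO peaks (97.2%) overlapped an exon of some other GENCODE transcript on the same strand. Such exons cover 7.16% of the intron sequence of the listed host transcripts. Whether sequence outside annotated exons was searched for peaks is not given in the sources used here.

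The largest class lay wholly inside a transcript of the host that GENCODE names a retained intron, a transcript in which an intron stays in the RNA. It held 1147 WT peaks (68.6%, 66.4 to 70.9%) and 1381 cKO peaks (69.3%, 67.3 to 71.3%), with median enrichments of 1.0002 and 1.02. Exons of retained-intron transcripts cover 4.70% of the same intron sequence. That is 5.41 Mb, out of 8.23 Mb covered by any annotated exon on the strand. Retained-intron exons are thus most of the annotated exon sequence there, and whether the peaks' share goes beyond theirs was not tested. A further 199 WT and 211 cKO peaks lay in another transcript of the host, with medians of 0.996 and 1.09. Peaks inside exons of another gene on the same strand numbered 184 in the WT (11.0%) and 228 in the cKO (11.4%). Nearly all of the latter were in noncoding genes (96 and 137) or pseudogenes (86 and 84), and only 2 and 7 in other protein-coding genes. They were longer, at medians of 324 bp and 293 bp, and more enriched, at 1.69 (1.48 to 1.87) and 1.54 (1.44 to 1.65), and they made up 33.0% of the WT and 30.5% of the cKO intronic peaks with IP at least 4-fold over input. Reads of a processed pseudogene and of its parent gene can be hard to tell apart, so the pseudogene peaks are uncertain. Only 43 WT and 55 cKO peaks overlapped no annotated exon on their strand.

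**Figure D2:**
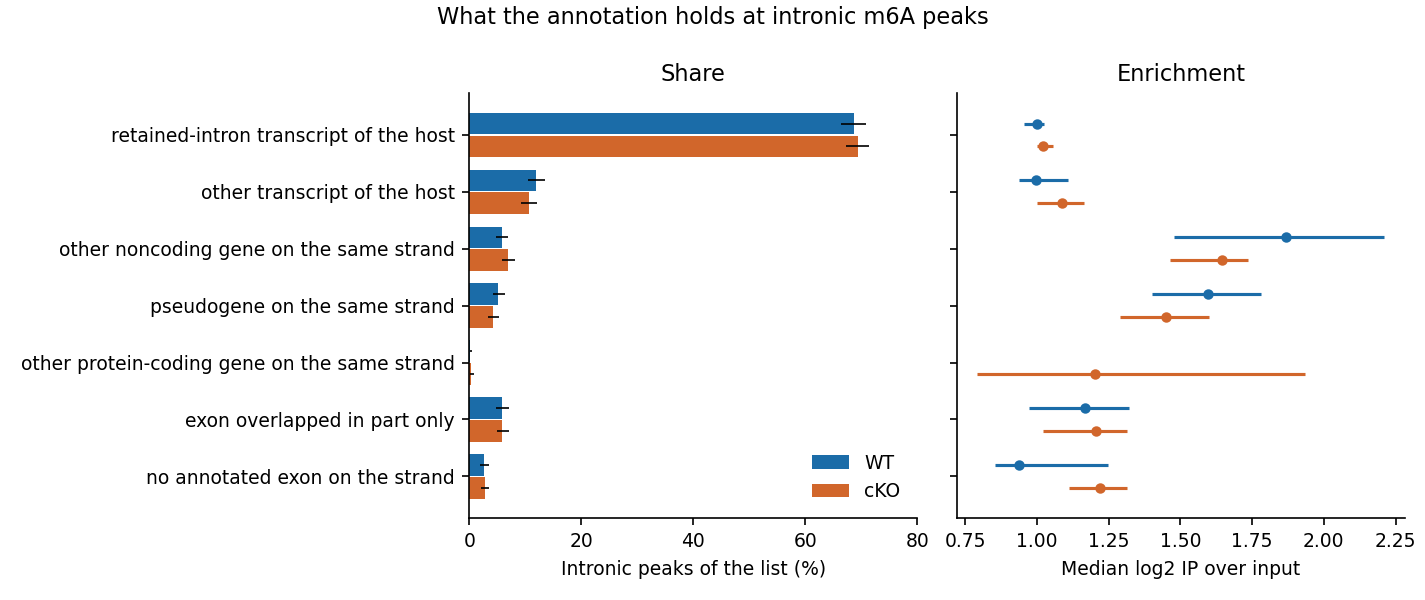
Share of the intronic peaks of each list (left, %, bars from 0) and their median log2 IP over input (right, points) by what GENCODE annotates at the peak, for the WT (blue) and the cKO (orange), with 95% intervals; no median is drawn for the 2 WT peaks in other protein-coding genes. Retained-intron transcripts hold 68.6% and 69.3% of the peaks, and peaks in other noncoding genes and pseudogenes have the highest medians.

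Placement in the introns of the listed transcript was possible for 1632 WT and 1940 cKO peaks. The introns that held them had a median length of 3058 bp in the WT and 3010 bp in the cKO. Peaks lay nearer to the 5' splice site, at a median of 859 bp and 770 bp, than to the 3' splice site, at 1265 bp and 1373 bp, and 56.7% and 59.6% lay on the 5' side of the intron's middle. Many sat close to an exon: 24.4% and 22.9% were within 100 bp of a splice site. In the WT, 15.7% of the peaks (14.01 to 17.6%) lay in the first intron, and in the cKO 16.7% (15.1 to 18.4%). On average, the first intron makes up 25.8% and 25.5% of the intron length of these transcripts. By number, it is 12.8% and 12.5% of their introns. Over all placed peaks, the share in first introns was thus below the first intron's share of length in both lists. It was above the first intron's share of the number of introns. Among peaks in retained-intron transcripts alone, 10.6% of the WT (8.91 to 12.6%) and 11.3% of the cKO (9.67 to 13.1%) lay in first introns. By number, first introns are 12.03% and 11.92% of the introns of their listed transcripts, within these intervals. The excess by number was thus not seen in this largest class. Of all WT intronic peaks, 456 (27.3%) shared their intron with another intronic peak, as did 606 cKO peaks (30.4%).

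The strongest named peaks showed how the classes differ. Among the 8 highest WT peaks, at log2 values of 7.30 to 7.86, 3 lay in a retained-intron transcript, including those of Ms4a6b, a membrane-spanning protein of leukocytes (7.64, a peak of 175 bp in intron 5 of 6), and Fgfr1, a fibroblast growth factor receptor (7.31, 100 bp, intron 10 of 17). The peak listed for Smo, the signal transducer of the Hedgehog pathway, lay in the pseudogene Gm13717 (7.31), and that listed for Fnip2, a partner of folliculin, in the noncoding gene Gm3513 (7.30). Of these 8 peaks, 4 overlapped any cKO peak and 3 an intronic one. Among the 8 highest cKO peaks, at 5.52 to 8.33, 5 lay in an exon of another gene, such as Ropn1l (8.33, in the pseudogene Gm6361) and Cluap1 (7.66, in Gm15538), and 1 lay in a retained-intron transcript, that of the SUMO protease gene Senp7 (7.50). Of these 8, 6 overlapped a WT peak and 5 an intronic one. The size of the fold did not follow the authors' adjusted p: it was 1.0e-73 for Dcun1d2 at 5.52 but 5.1e-05 for Ropn1l at 8.33.

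Intronic peaks were called in 1240 genes in the WT, 1432 in the cKO and 2024 in either, which is 13.7% of the 14804 genes with any peak. Most hosts had a single one, 77.3% in the WT and 74.5% in the cKO, and 7.10% and 8.10% had 3 or more. Their mature RNA carried peaks too: 97.1% of WT hosts and 97.8% of cKO hosts had a peak in another region of the same list, and 95.1% and 95.9% had one in the 3' UTR. Among all genes with a peak outside introns, 82.1% and 81.9% had a 3' UTR peak. That set is not like the hosts, since it includes genes of noncoding RNA, which have no 3' UTR. Peaks in noncoding RNA exons were listed for 1890 genes in the WT and 1996 in the cKO. Exonic peaks were found in 50.7% and 51.7% of hosts and in 34.7% and 35.3% of all such genes, with the same limit. Having an annotated retained-intron transcript went with having an intronic peak. Of 7336 genes with such a transcript, 1772 (24.2%, 23.2 to 25.2%) had an intronic peak, against 252 of 7456 genes without one (3.38%, 2.98 to 3.82%). Nearly all intronic peaks overlapped an annotated exon, and whether other sequence was searched is not given. The part of the annotation itself in this difference was not tested.

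The hosts with most intronic peaks were of different kinds. Galnt2l led with 16 peaks in each list. All of them lay in its first intron, which the annotation draws across 4384418 bp of chromosome 8 (the gene runs from 119910841 to 124345722), and 26 of the 32 lay in exons of other genes. Those 26 are listed under Galnt2l but lie inside exons of other genes. Of the 10 peaks of Raet1e, which encodes a ligand of the receptor NKG2D, 4 lay in exons of other genes and none in a retained-intron transcript; it is named because it ties with the last of the hosts below. In contrast, 11 of the 12 peaks of Git2, an ARF GTPase-activating protein, all 11 of Iqgap1, a scaffold of the actin cytoskeleton, and all 10 each of Amn1, Nktr and Prrc1 lay in retained-intron transcripts. Their enrichments were between 0.66 (Git2) and 2.31 (Amn1).

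Input levels were given for 1364 of the 2024 hosts, since that table lists genes with a differential peak. Their median mean FPKM over both inputs was 6.22 (quartiles 3.07 and 12.8), and 4.84% lay under 1. Genes with a value and no intronic peak had a median of 4.35, with 19.6% under 1. Levels of the hosts differed between the genotypes about as those of all genes did. On the log2(FPKM + 1) scale the median cKO minus WT difference was -0.02 (-0.04 to -0.01) over 1298 hosts with a mean of at least 1. Over all such genes it was -0.02. A 2-fold difference was reached by 7 of these hosts (2 higher, 5 lower), against 0.839% of all such genes. Enrichment was lower in hosts of higher input level. For peaks inside a host exon, the median log2 IP over input was 1.25 in the WT for hosts under 1 FPKM (32 peaks), 1.02 from 1 to 10 (562 peaks), 0.87 from 10 to 100 (326 peaks) and 0.80 at 100 or more (26 peaks). The cKO medians ran the same way, at 1.73, 1.06, 0.92 and 0.87. The host's level does not describe the RNA of the peaks that lie in another gene.

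The overlap between genotypes was lower for intronic peaks than for any other region. A cKO peak overlapped 739 of the 1671 WT intronic peaks (44.2%, 41.8 to 46.6%) on the same strand by at least 1 bp, against 73.2% of all WT peaks. A WT peak overlapped 782 of the 1992 cKO intronic peaks (39.3%, 37.1 to 41.4%), against 71.3% of all cKO peaks. Exonic peaks, the next lowest, had a partner in 59.0% and 59.7%. Where the partner had to be intronic too, 488 WT peaks (29.2%) and 509 cKO peaks (25.6%) had one. Of the 251 WT and 273 cKO peaks whose partners all lay in other regions, 25 and 30 met only partners with an outer span across the whole intron.

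Longer intronic peaks had a partner more often, with 32.4% (WT) and 26.1% (cKO) at 100 bp and 64.5% and 57.5% over 300 bp. At 100 bp the gap to other peaks was small in the WT, where 37.0% of them had a partner (34.5 to 39.5%, against 27.8 to 37.3% for intronic ones), and larger in the cKO (39.8% with 37.4 to 42.2%, against 22.0 to 30.6%). Intronic shares were lower than the others at every level of enrichment. With log2 IP over input under 1 they were 43.0% and 40.7% against 61.1% and 56.6%, from 1 to 2 they were 41.6% and 35.1% against 80.5% and 79.4%, and at 2 or more 57.4% and 50.2% against 85.0% and 84.0%. Intronic peaks with and without a partner had nearly the same median enrichment, 1.06 and 1.04 in the WT list, 1.08 and 1.10 in the other. By class, peaks in other noncoding genes had a partner in 72.9% (WT) and 65.7% (cKO), those in pseudogenes in 65.1% and 71.4%, and those in retained-intron transcripts in 38.3% and 33.2%.

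**Figure D3:**
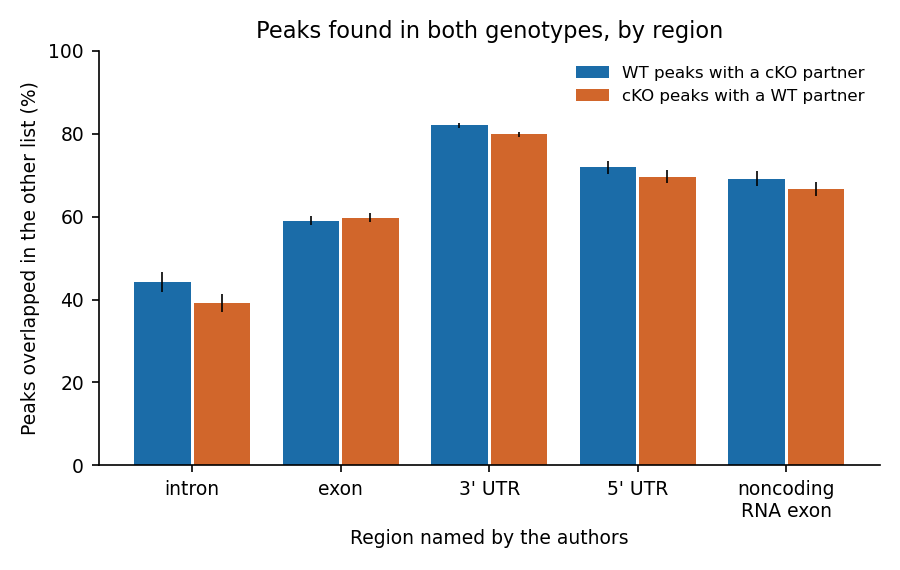
Share of peaks (y axis, %, bars from 0, with 95% intervals) that overlap a peak of the other genotype on the same strand by at least 1 bp, by region, for the WT list (blue) and the cKO list (orange). Introns have the lowest shares, 44.2% and 39.3%, and exons the next lowest, 59.0% and 59.7%.

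The sharing was also partial at the level of genes and introns. Of the hosts, 648 were the same in both lists, 52.3% of the WT and 45.3% of the cKO hosts, while 94.1% and 93.1% of all genes with a peak had one in both lists. Of the introns with a peak, 550 were the same, 40.4% of those in the WT and 34.7% of those in the cKO.

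Where an intronic peak of one genotype matched a single intronic peak of the other, the listed values showed no common shift. How the authors scaled IP to input is not stated, so a change shared by all peaks may not show in them. Peaks called in 1 list only are not among these pairs. Over 351 such pairs the median difference, cKO minus WT, was 0.00094 on the log2 scale (-0.05 to 0.07), and 175 were lower in the cKO (49.9%), against 45.2% of all matched peaks. Pairs outside introns had a median difference of 0.04 (0.04 to 0.05). Across the intronic pairs the WT and cKO values had a Pearson correlation of 0.74 and a Spearman correlation of 0.68, as a description over pairs that share their libraries. Among the 117 intronic pairs of highest mean enrichment, 28 (23.9%) differed at least 2-fold in either direction, against 10.3% of other pairs in the same range of mean enrichment. In this range 53.8% of intronic and 54.7% of other pairs were lower in the cKO. In the 117 pairs of middle enrichment the shares were 54.7% (45.2 to 63.9%) and 32.9% (31.7 to 34.1%), and in the 117 of lowest enrichment 41.0% and 39.4%, so the share differed beyond its interval in the middle range only.

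The pairs of highest mean enrichment were not alike in direction. Dcun1d2, which promotes the attachment of NEDD8 to cullins, had 5.12 in the WT and 5.52 in the cKO at a peak of 1115 bp (WT) and 1065 bp (cKO) in an exon of the noncoding gene 9530085L11Rik (chr8:13286352-13287466 in the WT list), which holds the GGACT shown above. Prepl, a serine hydrolase, had 4.75 and 7.99. Lower values in the cKO were listed for Zfyve28 (7.86 and 3.43), for Ms4a6b (7.64 and 3.50), for Wars2, the mitochondrial tryptophanyl-tRNA synthetase (5.48 and 3.24), and for Vmn2r59 (5.02 and 3.69), whose peak lay in the pseudogene Gm7224. So 4 of these 6 pairs were lower in the cKO and 2 were higher. They were picked for a high mean of both values.

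**Figure D4:**
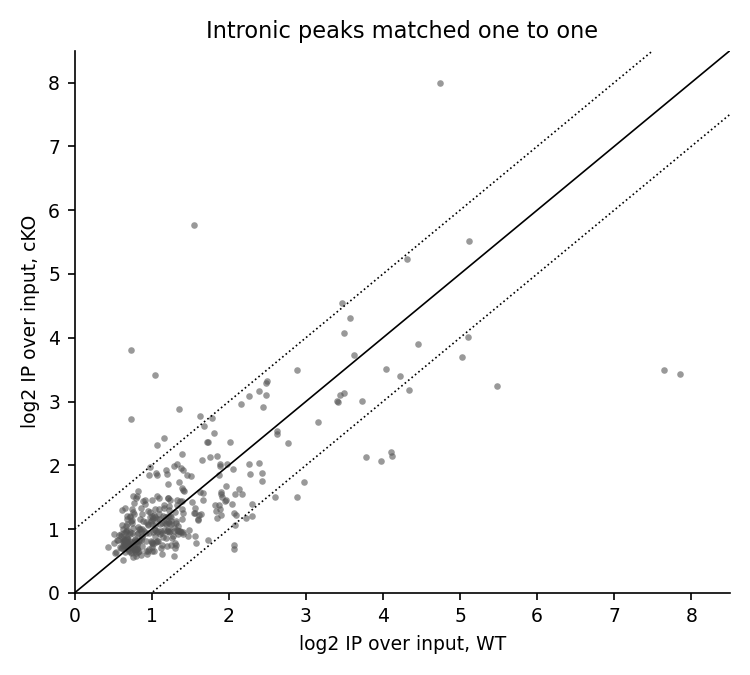
Log2 IP over input in the WT (x axis) and the cKO (y axis) for the 351 intronic peaks matched 1 to 1, each a grey point, with the line of equal values (solid) and lines of a 2-fold difference (dotted). Points lie on both sides of the line of equal values, 175 of them below it.

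The authors' deposited table of differential peaks, which holds rows with p below 0.05, listed 404 intronic rows. Of these rows in the authors' deposited table, 255 were higher in the cKO than in the WT and 149 lower. The share lower in the cKO was 36.9% (32.2 to 41.8%) in that authors' deposited table, against 51.1% of all its rows. An adjusted p below 0.05 was given in the authors' deposited table to 137 intronic rows (33.9%), against 53.3% of all rows. Of these, 76 rose and 61 fell (44.5% lower, 36.0 to 53.3%), against 54.3% lower among all rows of the authors' deposited table with an adjusted p below 0.05. Differences were large. An absolute log2 difference of at least 1 was listed in the authors' deposited table for 333 intronic rows (82.4%), against 35.6% of all rows.

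Most of these rows overlapped a peak of 1 list only, and their direction went with that list. In the authors' deposited table, IP lay below input in 1 genotype in 212 of the 404 intronic rows (52.5%, 47.5 to 57.4%), against 12.3% of the other rows. It was below input in the WT in 146 rows, all higher in the cKO, and in the cKO in 66 rows, all lower there. IP lay above input in the other genotype of these rows, so their direction follows from the split itself. Of 203 rows of the authors' deposited table that overlapped a peak of the cKO list only, 202 were higher in the cKO. Of 113 that overlapped a peak of the WT list only, 112 were lower. These counts are no separate evidence of direction, since a peak is listed where IP exceeds input. Where a row of the authors' deposited table overlapped a peak of both lists, the cKO was higher in 40 and lower in 29, and 19 rows overlapped a peak of neither. With IP above input in both genotypes, the authors' deposited table has 192 intronic rows, of which 109 were higher and 83 lower. The cKO list also holds 1992 intronic peaks against 1671 in the WT list, and the part that calling played in the direction of these rows was not tested.

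**Figure D5:**
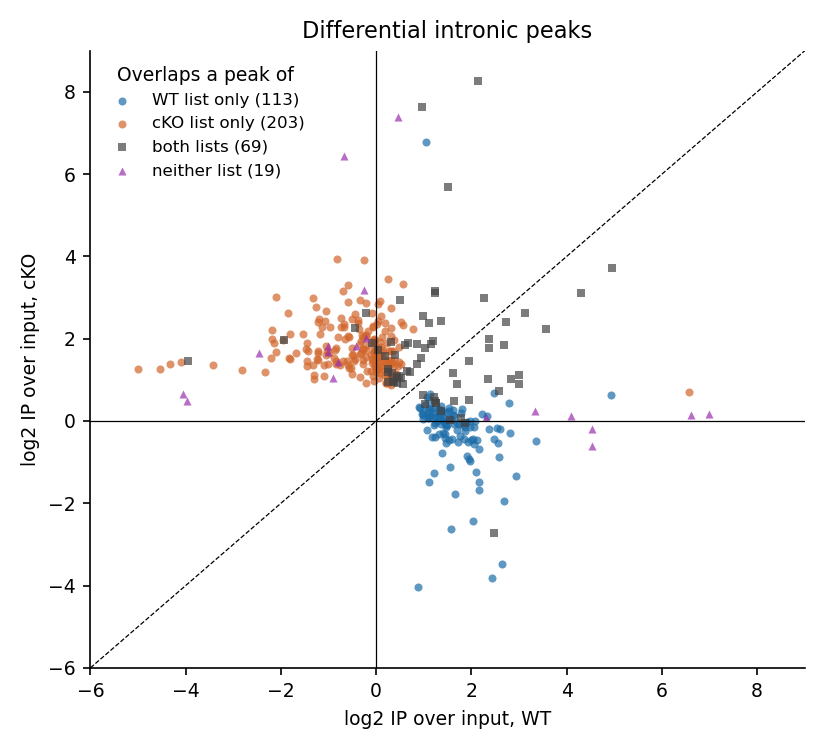
Log2 IP over input in the WT (x axis) and the cKO (y axis) for the 404 intronic rows of the authors' deposited table of differential peaks, by the peak list they overlap (blue, WT only; orange, cKO only; grey squares, both; purple triangles, neither), with lines at 0 and of equal values (dashed). The 203 rows of the cKO list only lie almost all above the dashed line, and the 113 of the WT list only almost all below it.

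Among falls with an adjusted p below 0.05, the largest in the authors' deposited table was in Sh2b2, an adaptor of receptor tyrosine kinases, at a peak of 125 bp in intron 7 of 8 (chr5:136220814-136220938). Its log2 IP over input was 6.98 in the WT and 0.18 in the cKO, which the authors' deposited table gives as -6.80 with an adjusted p of 0.019. Next in the authors' deposited table came Ift80, an intraflagellar transport protein (6.61 and 0.14), Zfp697, a zinc-finger protein, with 2 rows in intron 1 (2.42 and -3.83, and 2.69 and -1.95), and Med21, a subunit of the Mediator complex (2.64 and -3.48). The remaining falls named from the authors' deposited table were Cgrrf1 (-5.19, in the noncoding gene Gm48949), Entpd6, a nucleotide-hydrolysing enzyme (-5.13), and Vdac3, a channel of the outer mitochondrial membrane (-4.73).

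The largest rise in the authors' deposited table was in Rasgrp2, an exchange factor that activates Rap1, in intron 12 of 16 (chr19:6411494-6411593), from -0.67 for WT to 6.45 for cKO, or 7.13 higher (adjusted p 0.020). It was followed in the authors' deposited table by Rrnad1 (6.93), Cluap1 (6.68, in the pseudogene Gm15538), Mbtps1, the site-1 protease that cleaves sterol regulatory element-binding proteins (6.25), and Ropn1l (6.13, in the pseudogene Gm6361). Ndrg1, a gene induced by hypoxia and stress, rose by 5.81, Gfm2, a mitochondrial translation factor, by 5.10, and Pibf1, a centrosomal protein, by 4.76 in the authors' deposited table.

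These extremes share features. Of the 16 rows named as the largest rises and falls of the authors' deposited table, 14 spanned at most 175 bp, 11 had IP below input in 1 genotype, and 6 (among them Sh2b2, Ift80, Rasgrp2 and Rrnad1) overlapped no peak of either list. Their adjusted p values in the authors' deposited table ran from 0.015 to 0.049. Input levels of their hosts differed by -0.31 (Ropn1l) to 0.66 (Ndrg1, 48.9 FPKM in the WT and 78.0 in the cKO) on the log2(FPKM + 1) scale.

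Among the hosts of differential intronic rows with a mean input of at least 5 FPKM, the largest input differences were in Pdia6, a protein disulfide isomerase of the endoplasmic reticulum (30.9 FPKM in the WT and 51.1 in the cKO), Ndrg1, Vmp1 (58.5 and 89.3) and Atp6v0c, a subunit of the vacuolar proton pump (88.6 and 131). The intronic rows of all 4 were higher in the cKO in the authors' deposited table. The authors' deposited table gives 0.70 for Pdia6, 0.62 for Vmp1 and 1.59 for Atp6v0c, each with an adjusted p above 0.05. Only the row of Ndrg1 had an adjusted p below 0.05 there. The Vmp1 row lay in the pseudogene Gm11478, so the input level of Vmp1 does not describe its RNA. Lower input was seen for Phf11d (7.08 and 4.70), Ell2, a transcription elongation factor (14.9 and 10.3), Ntng2 (10.4 and 7.32) and Psmb8, a subunit of the immunoproteasome (58.5 and 42.4). Of their rows in the authors' deposited table, Phf11d was lower in the cKO (-0.998), while Ell2 (4.31), both rows of Ntng2 (1.01 and 1.58) and Psmb8 (0.52) were higher. The Ntng2 rows, of 14323 bp and 1158 bp, overlapped an annotated exon in part only. The intronic and input differences thus had the same sign in some of these hosts and opposite signs in others. The input differences compare 1 library with 1 library and were not tested here. Of the 362 hosts of intronic rows, 240 also had rows in other regions of the authors' deposited table, and 192 had 1 direction in each. In 105 of these the direction was the same, in 56 the intronic row was higher and the others lower, and in 31 the reverse, as the authors' deposited table lists them.

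The m6A machinery was examined for intronic peaks of its own. Of 24 such genes with any peak, 7 had one in an intron (29.2%, beside 13.7% of all genes with a peak), and all 7 have an annotated retained-intron transcript. Mettl3, the targeted gene, had none in the WT and 1 in the cKO, in intron 1 of 10 (chr14:52304253-52304427) at 1.30. That peak does not check the deletion, since the labels do not say which exons are deleted. No input level is given for Mettl3 either. Rbm15, an adaptor of the writer complex, had WT peaks at 3.05 and 1.26 and cKO peaks at 1.43 and 1.23 in its only intron, and none overlapped a peak of the other list. Hnrnpa2b1, a nuclear RNA-binding protein, had an overlapping pair in intron 1 with a WT value of 0.80 and a cKO value of 1.52, and Igf2bp2, a cytoplasmic m6A-binding protein, one in intron 13 at 1.29 and 0.58. Zcchc4, the methyltransferase of 28S ribosomal RNA, had 2 rows in the authors' deposited table, higher by 2.24 and 1.76 with adjusted p values of 0.063 and 0.12.

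Genes of splicing regulators and of kinases known for introns held back in the nucleus had the highest count. Of 49 with a peak, 27 had an intronic one (55.1%, beside 13.7% of all genes with a peak), with 33 peaks in the WT and 36 in the cKO. An annotated retained-intron transcript exists for 42 of the 49 (85.7%), against 49.6% of all genes with a peak. Members with one included Clk1, Clk2, Clk3 and Clk4, the kinases of serine- and arginine-rich splicing factors, as well as Srsf2, Srsf3, Srsf4, Tra2a, Tra2b, U2af1 and Snrnp70. In Rbm5, a splicing factor, 2 WT peaks (0.68 and 0.56) stood beside 6 in the cKO (0.52 to 1.61). The WT peak at 0.56 overlapped the cKO peak at 0.83. Region names also differed: the WT peak at 0.68 overlapped a cKO 3' UTR peak (0.86), and the cKO peak at 0.92 a WT exonic peak (0.89). The remaining cKO peaks overlapped no WT peak. Tia1, an RNA-binding protein of stress granules, had peaks in the cKO only, at 2.19 and 1.95. The authors' deposited table listed 4 rows of this group, of which Srrm1 rose (0.36 in the WT, 1.04 in the cKO, adjusted p 0.040) and Clk3 fell (1.03 and 0.41, adjusted p 0.022), both in intron 3. Clk1 was lower (-1.01) and Rbm25 higher (0.62) in the authors' deposited table, with adjusted p values of 0.12 and 0.15.

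Chromatin regulators had intronic peaks in 13 of 42 genes (31.0%, beside 13.7% of all genes with a peak). An annotated retained-intron transcript exists for 33 of the 42 (78.6%), against 49.6% of all genes with a peak. Among genes with such a transcript, 36.4% (20.4 to 54.9%) of these regulators had an intronic peak, against 24.2% of all. Kmt2e, a SET-domain protein, had a WT peak at 3.12 and a cKO peak at 0.93 at different places in intron 16. Tet2, an enzyme that oxidises 5-methylcytosine, had a WT peak in intron 7 at 1.58 that overlapped 2 cKO peaks, at 1.67 and 1.39. Among 4 differential rows, that of Arid1a, a subunit of the SWI/SNF remodelling complex, fell from 1.88 to -0.24 in the authors' deposited table (adjusted p 0.005), in intron 11 of 19. The rows of Tet2 (-1.01, in intron 5), Kdm5a (-1.60) and Kmt2e (2.76, elsewhere in intron 16) in the authors' deposited table had adjusted p values of 0.13, 0.092 and 0.13.

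Macrophage genes had intronic peaks in 10 of 36 (27.8%, beside 13.7% of all genes with a peak). None of the 36 had an intronic row in the authors' deposited table of differential peaks, against 2.45% of all genes with a peak. Csf2rb, a shared receptor subunit for several cytokines, had 1 WT peak in intron 3, at 1.24, and 4 cKO peaks there, of which those at 1.29 and 0.76 overlapped it. Its input levels were 219.7 and 220.3 FPKM. Irf8, a transcription factor of the myeloid lineage, had 3 WT peaks (2.10, 1.85 and 1.82) and 2 cKO peaks (1.90 and 1.32) in intron 2, none of which overlapped. The intronic peak of Spp1, the osteopontin gene, was in the cKO list only, at 1.06, inside an exon of Gm42793, and overlapped a WT 5' UTR peak at 1.60; its input level was 244 in the WT and 702 in the cKO.

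Inflammatory and NF-kB genes had intronic peaks in 8 of 38 (21.1%) and JAK-STAT genes in 6 of 28 (21.4%), beside 13.7% of all genes with a peak. Neither group had an intronic differential row, but only 2.45% of all genes with a peak had one. Ikbkb, a kinase that activates NF-kB, carried 4 in the WT and 5 in the cKO over 5 introns. Its strongest, in intron 2 (chr8:22702297-22702996 in the WT list), had values of 1.96 and 1.68 for WT and cKO, and a second pair in intron 12 at 0.78 and 0.84. Nfkb1 had 1 WT peak (1.66) and 3 cKO peaks (0.87 to 1.58) at other places, 2 of them inside the noncoding gene Gm43430. In the JAK-STAT group, Ifnar1, a subunit of the type I interferon receptor, had an overlapping pair in intron 2 at 1.37 and 0.97. Stat3 (1.40) and Socs5 (1.82) had intronic peaks in the WT only, and Jak3 (1.03) in the cKO only. Of 15 small nucleolar RNA host genes and nuclear noncoding RNAs with a peak, Snhg4 alone had an intronic one (6.67%, beside 13.7% of all genes). Its WT value was 0.92 and its cKO value 1.46.

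The motif GGACT was counted on the transcript strand in the 200 bases about the middle of each peak, for peaks that lay whole in 1 annotated exon and had such a window. It was in 268 of 1413 WT windows (19.0%, 17.0 to 21.1%) and 325 of 1695 cKO windows (19.2%, 17.3 to 21.1%) of intronic peaks. In windows of 200 bases directly beside the peak in the same exon it was in 15.3% (13.9 to 16.9%) and 15.9% (14.5 to 17.3%). Peaks outside introns had it in 19.6% and 18.7%, with 15.9% and 15.7% beside them. The share at intronic peaks was therefore close to that elsewhere, in the WT and in the cKO alike. Intronic peaks whole in 1 exon had median spans of 150 bp in the WT and 175 bp in the cKO. The middle window of a peak shorter than 200 bp runs into the bases counted beside it. Peaks outside introns are longer, so the windows of these groups are not alike. At intronic peaks of at least 4-fold enrichment it was 23.8% (17.8 to 30.6%) and 23.3% (17.7 to 29.7%). The shorter motif GGAC, which lies within GGACT, was in 47.1% and 45.5% of intronic windows, against 42.1% and 44.3% beside them. A match describes the letters only and does not show a methylated base.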

How the data were processed

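The sources gave 1 IP and 1 input library per genotype, so no test was run. The RNA was poly(A)-selected, fragmented and bound with an m6A antibody, per the labels' protocols. The submitters' processing notes name mm10 as build and, without roles, edgeR, StringTie, ChIPseeker, HOMER, HISAT2 and fastp, and the peak caller is not given in the sources used here. Per the file headers, the deposited peak lists and differential table hold log2 IP over input and its p-value, raw and adjusted, and the authors deposited FPKM of both inputs for genes with a differential peak. Spans were computed from outer ends (starts count from 0; printed positions are 1-based). Overlaps with peaks and GENCODE M21 exons of the same strand came from bedtools 2.31.1, and GENCODE gene starts matched those of the lists. Intervals are exact Clopper-Pearson or order-statistic intervals at 95%, tested on simulated data. Input differences used log2(FPKM + 1) at a mean FPKM of at least 1. Sequence came from GENCODE transcripts, so peaks outside a single annotated exon have none. Named peaks and genes are the 8 strongest peaks per list and 8 largest rises and falls (adjusted p below 0.05), 6 hosts by number of peaks, 6 matched peaks, up to 5 genes per list, 4 input differences each way, and Mettl3, leaving out symbols of Gm plus a digit or ending in Rik and mitochondrial genes. The intronic peaks, the 8 gene lists and these rules were chosen with earlier results of these data known.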

Additional observations from a re-analysis of the deposited data

How the results depend on the processing

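The share of intronic peaks was 3.91% in the WT and 4.44% in the cKO among peaks with log2 IP over input of at least 1, 5.46% and 6.08% among spans up to 5000 bp, and 7.80% and 8.59% among peaks whole in 1 annotated exon; it was higher in the cKO each time. Median enrichment was 0.9996 and 1.03 for peaks whole in a host exon. Overlap was 20.8% and 17.0% where 50% of both peaks had to be shared, against 48.8% of all WT and 46.1% of all cKO peaks. At 1 bp with an intronic partner it was 29.2% and 25.6%. The median difference at matched peaks changed sign, to -0.00040, at an adjusted p below 0.05 in both lists, with intervals across 0 in both cases. Differential intronic rows numbered 137 (44.5% lower) at an adjusted p below 0.05 and 192 (43.2% lower) with IP above input in both genotypes. The motif was in 47.1% and 45.5% of windows as GGAC, and GGACT in 9.48% and 10.3% of windows of 100 bases, which hold fewer positions. Other alternatives that were run moved shares and medians by less than their intervals. Those that limit peaks to 1 annotated or a host exon were added after seeing the data. Summed block length was not run, since the files give no blocks. No paired analysis was possible because each group has 1 sample. Without read totals, the depth at a 100 bp peak is unknown.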

Other observations

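Intronic peaks with signal on both strands were few. In the WT list 65 intronic peaks overlapped a peak on the opposite strand, and in the cKO list 79, with a median absolute difference between the overlapping peaks of 0.44 and 0.52 on the log2 scale. An annotated exon on the opposite strand lay at 78 WT intronic peaks (4.67%) and 77 cKO intronic peaks (3.87%), where the median log2 IP over input was 1.26 and 1.24. Within the same list, 68 WT intronic peaks (4.07%) and 76 cKO intronic peaks (3.82%) overlapped the outer span of a peak listed in another region by at least 1 bp. Among the pairs matched 1 to 1, region names also differed between genotypes: 73 intronic WT peaks matched an exonic cKO peak, 23 a 3' UTR peak and 19 a 5' UTR peak, and 91 intronic cKO peaks matched an exonic WT peak, 18 a 3' UTR peak and 8 a 5' UTR peak.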
